A study of Mus musculus with 30 samples.

Results

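The CTCF sites described here are those that lie far from protein-coding genes in the mouse embryonic trunk. CTCF summits of the 3 wild-type (WT) peak lists were linked within 150 bp, and a site was kept when all 3 libraries had a peak over the median summit. Of the 47658 sites found this way, 46282 lay on autosomes, and 6595 of these (14.2%) were more than 50 kb from the body of every RefSeq protein-coding gene. They are called far sites below, and the remaining 39687 autosomal sites are called other sites. The name holds for protein-coding genes only. Of the far sites, 1320 (20.0%) lay inside the body of a RefSeq gene that does not code for protein, in 1158 cases a long non-coding RNA gene, and 1758 (26.7%) were more than 50 kb from every RefSeq gene of any kind.

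CTCF is a zinc-finger protein that binds a directional DNA motif and halts cohesin, the ring complex that extrudes chromatin loops. RAD21 is the subunit that closes the cohesin ring, so a RAD21 peak at a CTCF site marks a place where cohesin accumulates. Sites in gene deserts are known as anchors of long loops and as borders of domains that hold distant enhancers.

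Both proteins were mapped by ChIPmentation, an immunoprecipitation in which Tn5 transposase adds the sequencing adapters on the beads, in trunks of B6CBAF1 embryos at E10.5. The embryos came from crosses between carriers of mutant alleles, were dissociated 1 by 1 and genotyped on the yolk sac, and received no treatment. Controls were WT littermates (3 CTCF and 4 RAD21 libraries). The mutants were homozygous for 1 of 6 alleles in which CTCF binding sites (CBS) of the Hoxd cluster on chromosome 2 were mutated in cis: Del(CBS1) with 3 CTCF and 3 RAD21 libraries, Del(CBS1-2) with 1 and 2, Del(CBS1-3), Del(CBS1-4) and Del(CBS1-5) with 2 and 2 each, and Del(CBS2) with 1 and 1. Between 40011 and 88323 peaks were listed per CTCF library and between 16676 and 48102 per RAD21 library. Read depth was unknown, a site without a peak was not detected rather than shown to be unbound, and the trunk is a mixture of cell types, so fewer cells with a bound site and less binding per cell could not be told apart.

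The sequences of far sites could be read only where a site fell in a RefSeq promoter window, the 250 bases before and 50 after a gene's start (GRCm38.p6). This held for 40 far sites in 41 windows (0.607% of far sites, against 3.69% of other sites), all of long non-coding RNA genes. The rule bars far sites from windows of protein-coding genes, so the absence of such genes and part of the lower share were set by it. Windows over other CTCF sites and the whole autosomal set, used for comparison below, were not limited in this way. The windows were searched on both strands for a core of the CTCF motif (CCA, 2 bases of any kind, AG, 2 bases of any kind and GGC), which was found in 14 of the 41 (34.1%), in 244 of 1584 windows over other CTCF sites (15.4%) and in 776 of all 31396 autosomal windows (2.47%). The centre of the match lay 1.5 to 63.5 bases from the CTCF summit (median 24.5). The stretches below are shown to set matches at sites with RAD21 in all 16 libraries (the first 4) beside matches at sites without a RAD21 peak in any library (the last 3). Each is written 5′ to 3′ on the strand of the motif, with the match in capitals and 24 bases to each side.
Gm46796, chr3:6106783-6106842, minus strand: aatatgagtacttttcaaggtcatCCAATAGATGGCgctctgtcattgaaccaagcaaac
E330013P04Rik, chr19:60144511-60144570, minus strand: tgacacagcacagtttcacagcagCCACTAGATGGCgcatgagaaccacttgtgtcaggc
Gm41429, chr16:18696578-18696637, plus strand: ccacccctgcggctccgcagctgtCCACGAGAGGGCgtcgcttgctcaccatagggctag
Gm13404, chr2:33973565-33973624, plus strand: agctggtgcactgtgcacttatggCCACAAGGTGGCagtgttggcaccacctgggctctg
Gm40002, chr2:170651642-170651701, plus strand: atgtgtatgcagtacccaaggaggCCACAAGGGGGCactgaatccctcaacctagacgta
Gm32776, chr12:106146834-106146893, minus strand: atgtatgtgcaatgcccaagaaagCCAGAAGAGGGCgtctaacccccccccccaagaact
Gm40634, chr10:43743232-43743291, minus strand: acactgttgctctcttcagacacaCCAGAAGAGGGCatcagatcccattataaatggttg

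The site at Gm46796, 509 kb from the nearest protein-coding gene (1700008P02Rik), had CTCF folds of 17.8, 15.8 and 18.2 in the WT libraries and RAD21 folds of 12.6 to 18.8. The fold is how far the signal at a peak exceeded the background around it within that library. At Gm40634 the WT CTCF folds were 3.54, 3.81 and 6.71, and the peak was found in 11 of 14 CTCF libraries. The sites of the stretches shown thus differed in CTCF strength as well. Ranked by WT fold among autosomal WT sites, the first 4 stood at mean percentiles of 86.2 to 97.2 and the last 3 at 15.9 to 49.2. The site of Gm26901, not shown, had a match and RAD21 in all 16 libraries at percentile 38.0. The match at the last 2 sites shown was the same 12 letters, CCAGAAGAGGGC. These letters, singled out after the matches were seen, also stood at the sites of Gm34080 and 2700003A03Rik, 4 of the 41 far windows in all, against 10 of 1584 windows over other CTCF sites and 81 of 31396 (0.258%). RAD21 peaks were found in 15 of 16 libraries at Gm34080, in 2 at 2700003A03Rik and in 0 at Gm32776 and Gm40634. Of the 14 windows with a match, which lay over 13 sites, 9 had RAD21 in every library and 3 in none. Of the 27 windows without one, 18 had it in every library and 3 in none. The search allowed no mismatch at the fixed bases of the core, so a window without a match can still hold a near match.

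Far sites were spread thinly. The territory more than 50 kb from protein-coding genes, counted between the first and last such gene of each autosome, made up 836 Mb (34.8% of that span) and held 7.84 sites per Mb, against 25.4 per Mb in the rest. The median distance of a far site to its nearest protein-coding gene was 130 kb. There were 2491 sites at 50 to 100 kb, 1915 at 100 to 200 kb, 1580 at 200 to 500 kb and 609 beyond 500 kb. The nearest CTCF site on either side was a median of 22.9 kb away for far sites and 9.51 kb for other sites, and 14.4% of far sites had no CTCF site within 100 kb, against 2.00% of other sites. Density ranged from 6.17 sites per Mb of such territory on chromosome 3 to 10.0 on chromosome 11. The 50 kb limit itself separated sites that differ little in position: just inside it were sites at 50020 bp from Tnfrsf21 (mean WT percentile of fold 22.6) and 50025 bp from Pld5 (64.98), and just outside it sites at 49979 bp from Btbd11 (20.6) and 49956 bp from Gm9733 (95.0).

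In WT no difference between far and other sites passed by fold or by −log10 p, though far sites ranked lower by the latter. Strength was expressed as the percentile of a site among the autosomal WT sites of a library. By fold, the median far site stood at percentile 50.7 ± 2.41 (SD, n = 3 WT libraries) and the median other site at 49.9 ± 0.381. The difference was 0.84 points, with 2 of 3 libraries higher (exact sign-flip permutation, 2-sided, p = 0.75; the smallest p that 3 libraries allow is 0.25). It was −0.631 points for far sites beyond 100 kb and −3.13 against sites 5 to 50 kb outside genes. By −log10 p, the caller's significance, far sites stood at 43.2 ± 0.619. The far minus other difference was then −8.05 points (exact sign-flip permutation, p = 0.25, again the smallest that 3 libraries allow). The percentile declined with distance from 48.6 ± 0.475 at 50 to 100 kb to 41.9 ± 0.889, 40.1 ± 0.928 and 36.8 ± 2.00 in the 3 farther classes. By fold the same 4 classes stood at 52.7 ± 1.09, 48.8 ± 2.78, 50.2 ± 3.54 and 49.3 ± 7.57, which overlap within their SD beyond 100 kb. The WT peaks over far sites were also narrower, with a median width of 580 ± 34.0 bp against 625 ± 37.3 bp, and narrower in 14 of 14 CTCF libraries by 37 to 75 bp.

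**Figure D1:**
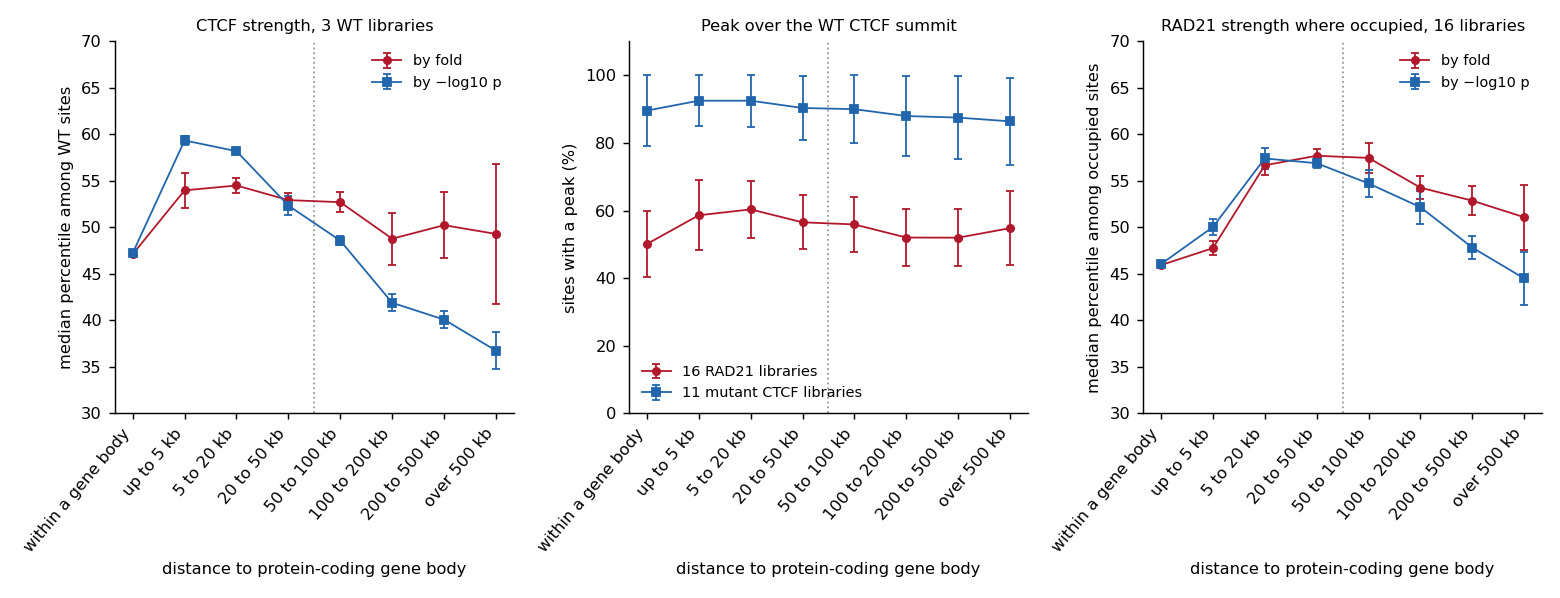
Median percentile of CTCF strength (left), share of sites with a peak (middle) and median percentile of RAD21 strength at occupied sites (right), by distance from the nearest protein-coding gene body; points are means over libraries, bars are SD, and the dotted line is the 50 kb limit. The CTCF percentile by −log10 p is 47.2 inside gene bodies, 59.4 within 5 kb outside them and 36.8 beyond 500 kb, while that by fold stays between 47.1 and 54.5.

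Values of all 14 CTCF libraries could be set side by side only at sites that each of them detected, and this filter kept 59.2% of far and 66.2% of other sites. In the same 3 WT libraries it moved the difference in fold percentile from 0.84 to 7.16 points. The values that follow are therefore given as a description. Over the sites found in all 14 CTCF libraries, of which 3905 were far, the median far site was above the median other site by 6.11 percentile points of fold (SD 3.76), higher in 14 of 14 libraries and by 0.184 to 12.7 points. It was 3.42 points without the 5 shortest lists, 12.1 with peaks of −log10 q of at least 10 and 9.13 with distances to all RefSeq genes. Ranked by −log10 p the difference was −8.64 points, lower in each of the 14 libraries by 6.04 to 12.5 points. Against the 9973 other sites that lay 5 to 50 kb outside genes, the fold difference was 2.76 points.

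**Figure D2:**
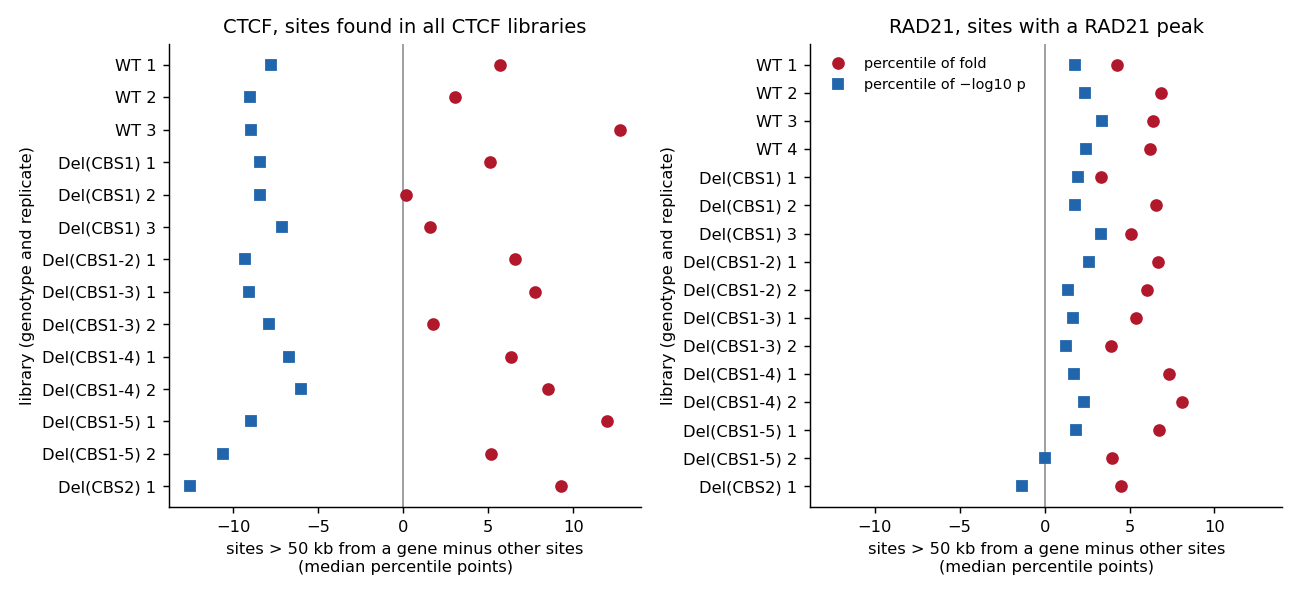
Difference in median percentile between far and other sites in each library, for CTCF over sites found in all CTCF libraries (left) and for RAD21 over sites with a RAD21 peak (right). For CTCF all circles (fold) lie above 0 and all squares (−log10 p) below it; for RAD21 all circles lie above 0 and 1 square, Del(CBS2), lies below it.

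The strongest far sites by fold stood among the strongest in the genome. The site on chromosome 17 at 8051388, 71.8 kb from Rsph3a and 77.2 kb from Rnaset2a, had WT CTCF folds of 29.6, 29.3 and 36.5, mutant folds of 14.6 to 35.7 (median 30.2) and RAD21 peaks in all 16 libraries. Its RAD21 folds in WT were 21.3, 30.2, 30.8 and 31.7. On chromosome 13 at 13889606, 61.7 kb from Gng4, which encodes a G-protein gamma subunit, the WT CTCF folds were 23.8, 19.8 and 23.5 and the RAD21 folds 20.0, 19.3, 21.8 and 23.4. Sites on chromosome 17 at 87571798, 64.2 kb from the epithelial adhesion gene Epcam, and on chromosome 3 at 5860642, 282 kb from the peroxisome gene Pex2, were likewise found in all 30 libraries. Their mean WT CTCF folds were 21.9 ± 1.97 and 25.3 ± 4.30 (SD, n = 3).

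The far site with the highest mean CTCF percentile did not carry RAD21 in most libraries. It lay on chromosome 8 at 20424854, 61.7 kb from Gm15319, with WT CTCF folds of 31.5, 34.1 and 36.1 and a CTCF peak in all 14 libraries. A RAD21 peak covered it in 7 of 16 libraries and in 1 of 4 WT libraries, with a fold of 5.70 there and a highest mutant value of 17.9 in Del(CBS2).

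The 5 strongest far sites by RAD21 included 2 that were not among the 5 strongest by CTCF. The site on chromosome 11 at 109011870 was 61.1 kb from Axin2, a target and inhibitor of Wnt signalling, with WT RAD21 folds of 16.1, 21.7, 17.4 and 21.0. The other lay on chromosome 6 at 3201448, 171 kb from Samd9l, with WT RAD21 folds of 17.9, 16.4, 17.1 and 23.7. The WT folds of both overlapped those of the mutants, which ran from 14.04 to 24.8 and from 13.8 to 29.0.

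The farthest site lay between Celf4, which encodes an RNA-binding protein of neurons, and Pik3c3, 2188 kb from the latter. It had a CTCF and a RAD21 peak in every library, WT CTCF folds of 12.7, 10.99 and 15.5 and WT RAD21 folds of 9.76, 13.4, 11.4 and 13.5. A second site of the same interval, 2083 kb from Celf4, was also found in all 30 libraries. Between the protocadherin genes Pcdh20 and Pcdh9, the site on chromosome 14 at 90433363 was 1962 kb from Pcdh20, with WT CTCF folds of 17.2, 14.3 and 18.7 (percentile 95.7 ± 3.18) and RAD21 in 16 of 16 libraries. The next farthest were weaker: chromosome 1 at 102378759, 1888 kb from Cntnap5b, had RAD21 in 11 of 16 libraries, and chromosome 1 at 113838048, 1847 kb from Cntnap5a, had CTCF in 7 of 14 libraries and RAD21 in none.

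RAD21 occupied far sites about as often as other sites. In the WT libraries 45.1%, 61.1%, 55.9% and 58.0% of far sites had a RAD21 peak over the CTCF summit, a mean of 55.0% ± 6.96 (SD, n = 4) against 54.3% ± 7.69 of other sites. Over all 16 RAD21 libraries the difference was 0.087 percentage points (SD 1.43), higher in 8 and lower in 8 (exact sign-flip permutation, p = 0.81). The sign depended on the limit: it was 1.46 points with far sites beyond 20 kb and −1.36 beyond 100 kb (p adjusted after Benjamini-Hochberg over the 10 such tests = 0.00595 and 0.00145, exact permutation), and −0.946 (adjusted p = 0.0343) without CTCF WT replicate 2. Other sites were mixed, however: RAD21 was found at 50.1% ± 9.66 of sites inside gene bodies and at 58.7% ± 9.03 of sites up to 50 kb outside genes. Set against the sites 5 to 50 kb outside genes, far sites were occupied 5.09 percentage points less often (53.7% ± 8.50 against 58.8% ± 8.23, n = 16; exact permutation p = 3.05e-05, the smallest that 16 libraries allow, adjusted p = 0.000153).

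RAD21 occupancy at far sites rose with CTCF strength. When all WT sites were divided into 4 equal classes by mean fold percentile, RAD21 peaks in WT covered 17.8% ± 6.99, 35.6% ± 10.3, 68.2% ± 8.54 and 94.8% ± 2.29 of far sites from the weakest to the strongest class. In other sites the values were 16.6%, 38.7%, 69.5% and 93.1%. Far sites were lower in the second class in 16 of 16 RAD21 libraries and higher in the strongest in 13 of 16. Averaged over classes, far sites were 0.98 points lower (SD 1.42; 11 of 16 libraries; adjusted p = 0.0332, exact permutation), but this call was not stable. It ended, at differences of −0.966 to −0.717, without CTCF WT replicate 1 or without any 1 of 8 RAD21 libraries (WT 2, Del(CBS1) 2 and 3, both Del(CBS1-2), both Del(CBS1-4) and Del(CBS2)), and without CTCF WT replicate 3 the difference was 0.112. With classes of −log10 p, chosen after seeing the data, far sites were 6.14 points higher (adjusted p = 0.000153).

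**Figure D3:**
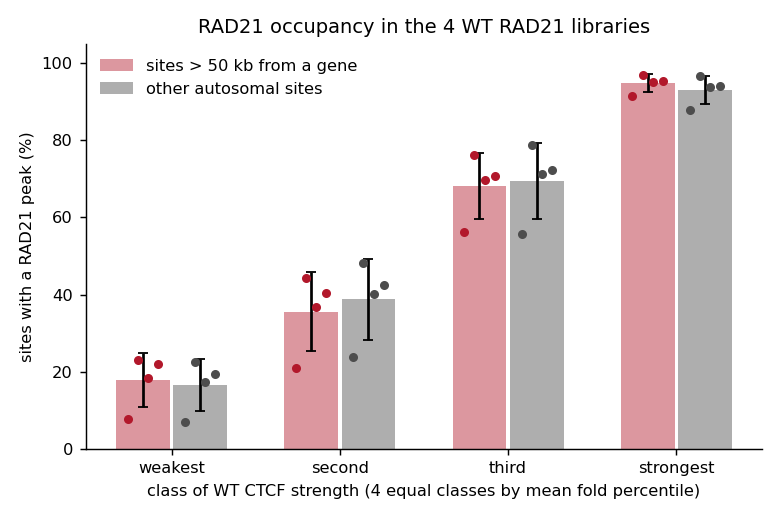
Share of sites with a RAD21 peak in the 4 WT RAD21 libraries, by class of CTCF strength; bars are means, lines SD and points single libraries. Occupancy of far sites runs from 17.8% in the weakest class to 94.8% in the strongest, and the far and other points overlap in every class.

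Where a RAD21 peak was detected, its fold ranked higher at far sites than at other sites, but lower than at sites 5 to 50 kb outside genes. Among occupied sites of a library, the median far site exceeded the median other site by 5.71 percentile points of RAD21 fold (SD 1.39), by 3.31 to 8.07 points and in 16 of 16 libraries (exact sign-flip permutation p = 3.05e-05, adjusted p = 0.000305). In fold units the WT medians were 7.28 ± 0.856 at far and 6.68 ± 0.815 at other sites (SD, n = 4). The difference depended on which sites stood for comparison: it was −2.14 points (adjusted p = 0.000305, exact permutation) against sites 5 to 50 kb outside genes, since RAD21 percentiles were 45.9 ± 0.298 inside gene bodies and 57.0 ± 0.837 at 5 to 50 kb. It was 3.5 points for far sites beyond 100 kb and 8.98 with peaks of −log10 q of at least 10. By −log10 p far sites exceeded other sites by 1.78 points. All these values cover only sites where the library itself detected a RAD21 peak, since a site without a peak has no rank. They therefore cannot show how RAD21 strength compares over all far and other sites. The part of this filter in the difference was not tested.

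No library had a RAD21 peak at 1680 of the 6595 far sites (25.5%, against 24.5% of other sites), and 1875 (28.4%, against 27.1%) had one in all 16. The strongest class of CTCF sites held 13 far sites without a RAD21 peak in any library (0.197%, against 0.146% of other sites). The highest of these lay on chromosome 7 at 35958905, 156 kb from Zfp507, with WT CTCF folds of 15.7, 12.7 and 14.3. The next lay on chromosome 14 at 53121833 within the T-cell receptor alpha region, 580.5 kb from Gm36448 (14.4, 11.9 and 16.3), and on chromosome 6 at 98089487, 68.1 kb from Mitf, the melanocyte transcription factor (15.5, 11.7 and 14.1). A site on chromosome 17 at 49282637, between Lrfn2 and Mocs1, had WT folds of 18.0, 10.0 and 13.9, and one on chromosome 2 at 47466297, 1348 kb from the activin receptor gene Acvr2a and 2349 kb from Zeb2, had 15.5, 10.2 and 14.99. All 5 had a CTCF peak in each of the 14 CTCF libraries.

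A few gene intervals held many far sites. Of 2476 intervals between protein-coding genes with territory beyond 50 kb, 1598 (64.5%) held at least 1 far site, and 150 intervals with 10 or more held 1991 (30.2%) of all far sites. The most, 51, lay on chromosome 5 between Gm4868 and Tmem132c, at 39.5 per Mb. They were weaker than far sites at large and less often occupied: the median WT percentile was 35.5, 35 of the 51 (68.6%) had no RAD21 peak in any library, RAD21 covered 18.1% ± 5.40 of them in WT (n = 4) and 19 (37.3%) were found in all 14 CTCF libraries, against 59.2% of all far sites. The 23 sites between the proliferation marker gene Mki67 and the DNA repair gene Mgmt on chromosome 7 had a median percentile of 58.1, RAD21 at 65.2% ± 11.8 in WT and 3 sites without RAD21. Between Auts2 and Castor2 on chromosome 5, 10 of 23 sites had no RAD21 peak. These descriptions of intervals chosen for their number of sites carry no test.

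Far sites also lay in antigen receptor loci, whose variable, joining and constant segments RefSeq does not list as protein-coding genes. The T-cell receptor alpha and delta interval on chromosome 14, between Gm36448 and Dad1, held 28 far sites with RAD21 at 26.8% ± 6.19 in WT (n = 4), and 10 of them had no RAD21 peak in any library. The loci differed: RAD21 covered 71.4% of the 7 far sites at the T-cell receptor beta locus in each WT library, 87.5% ± 25.0 of the 2 at the immunoglobulin lambda locus and 3.57% ± 7.14 of the 7 at the immunoglobulin heavy chain locus. In lymphocytes CTCF and cohesin at antigen receptor loci are known to contract the chromatin for gene segment recombination. Over all such loci 80 far sites (1.21%) lay within 50 kb of a segment, and 1 lay inside one. RAD21 covered 36.9% ± 6.17 of the 80 in WT, 8 had RAD21 in all 16 libraries and 26 in none. The largest territory without a single far site lay between Rgs18 and Brinp3 on chromosome 1, at 1620 kb, and 3 of the 213 intervals with 1 Mb or more of territory had none.

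Far sites were also grouped by their nearest protein-coding gene. Of all 20558 protein-coding genes matched, 2197 had a far site, and of 131 developmental regulators 93 did. The 325 far sites of the regulators lay at 7.07 per Mb of territory against 7.84 for all genes. Their median WT CTCF percentile was 41.4 ± 3.10 (n = 3) against 50.7 for all far sites, and RAD21 covered 45.6% ± 6.65 of them in WT (n = 4) against 55.0%. Bmp2, a bone morphogenetic protein, had 10 sites at 51.9 to 467 kb, 3 of them with RAD21 in every library and 2 without any. The neural and pluripotency regulator Sox2 had 9 with a median percentile of 28.0 and RAD21 in none of the libraries at 4 of them. The neural adhesion genes gave a sparser picture, with 246 far sites around 54 of 64 genes and 3.07 per Mb, in 9.59% of the territory. Their RAD21 occupancy in WT was 56.4% ± 8.96. Lrrc4c, a synaptic adhesion gene, had 13 sites out to 1778 kb, 7 with RAD21 in all libraries. No test was made of these lists, which were chosen with earlier results of these data known.

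The share of far sites with a CTCF peak varied between mutant libraries, also within a genotype. It was 95.5%, 69.9% and 78.2% in the 3 Del(CBS1) libraries. Del(CBS1-2) had 97.3%, Del(CBS1-3) had 99.2% and 70.4%, Del(CBS1-4) had 83.5% and 86.6%, Del(CBS1-5) had 98.8% and 95.7%, and Del(CBS2) had 97.6%. The 3 lowest values came from the 3 shortest CTCF lists, of 40667, 44550 and 40011 peaks. Above these, length and share did not keep 1 order: a Del(CBS1) list of 55109 peaks held 95.5% and a Del(CBS1-4) list of 55899 held 86.6%. Within 1 allele, the 2 Del(CBS1-3) libraries were at 99.2% and 70.4%. In each of the 11 mutant libraries far sites were detected less often than other sites, with differences from −5.74 to −0.229 percentage points (mean −2.08, 88.4% ± 11.3 against 90.5% ± 9.44; exact sign-flip permutation p = 0.000977, adjusted p = 0.00326). The mean difference was −4.82 when the same number of top peaks was taken from every list and −1.08 without the 5 shortest lists. Among far sites the share declined with distance, from 90.0% ± 9.98 at 50 to 100 kb to 86.4% ± 12.9 beyond 500 kb. Other sites were mixed here too, at 89.5% ± 10.4 inside gene bodies and 91.6% ± 8.35 at 5 to 50 kb outside genes. Against the latter the mean difference of far sites was −3.16 points. All 14 CTCF libraries had 59.2% of far sites and 66.2% of other sites. The same peak lists gave a lower −log10 p at far sites, and the part of this in the lower detection was not tested.

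**Figure D4:**
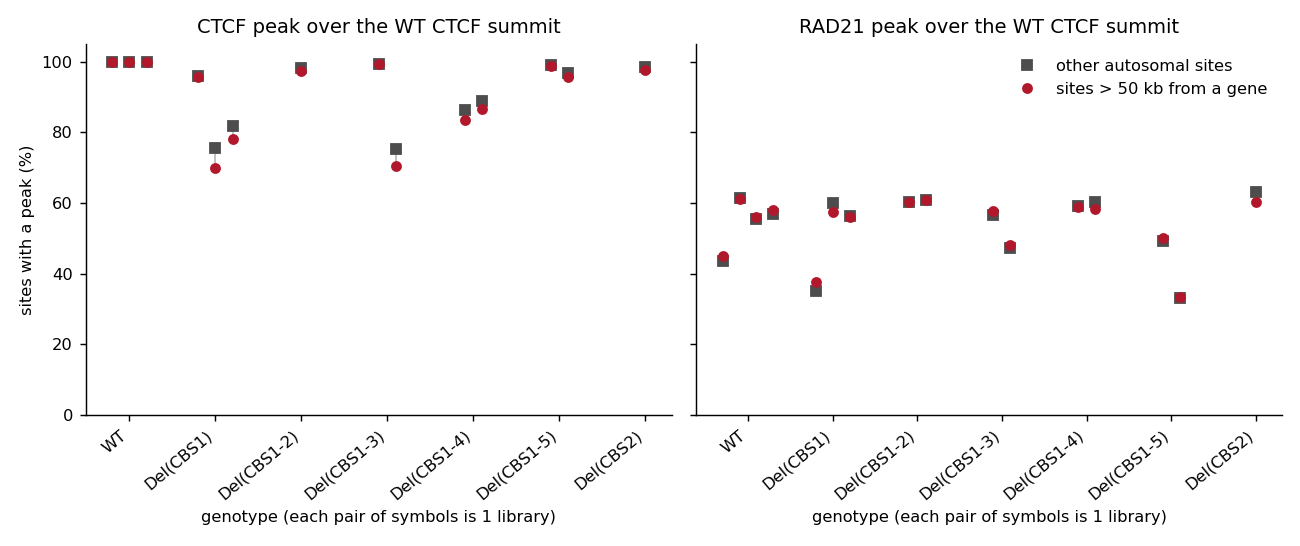
Share of far sites (circles) and other sites (squares) with a CTCF peak (left) or a RAD21 peak (right) over the WT CTCF summit, 1 pair of symbols per library, by genotype; WT CTCF libraries are at 100% by the rule that chose the sites. The CTCF circles lie below the squares in every mutant library, while RAD21 circles lie on both sides.

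RAD21 occupancy of far sites did not separate mutants from WT. The 3 Del(CBS1) libraries had RAD21 at 37.6%, 57.6% and 56.1% of far sites. Del(CBS1-2) had 60.2% and 60.7%, Del(CBS1-3) had 57.8% and 48.1%, Del(CBS1-4) had 58.9% and 58.3%, Del(CBS1-5) had 50.2% and 33.5%, and Del(CBS2) had 60.4%. The 2 lowest came from the shortest RAD21 lists, of 18029 and 16676 peaks. Del(CBS1) differed from WT by −4.60 percentage points (50.4% ± 11.1, n = 3, against 55.0% ± 6.96, n = 4; exact permutation p = 0.514, smallest possible 0.0286), which turned to 1.82 without its first replicate. All mutants differed from WT by −1.74 points (53.3% ± 9.19, n = 12; exact permutation p = 0.755). The far minus other difference was −0.12 ± 1.56 points in mutants and 0.70 ± 0.865 in WT for RAD21 (exact permutation p = 0.335), and for CTCF strength, over the sites found in all CTCF libraries, 5.83 ± 3.60 and 7.16 ± 5.01 points (exact permutation p = 0.604). The CTCF values cover only sites that every CTCF library detected, the filter described above. Sites that a mutant library lost are left out, so this comparison cannot show a change through lost detection. The far minus other difference varied between lists of unlike length. For RAD21 it was 2.59 points in the list of 18029 peaks and −2.58 in that of 48102, and for CTCF strength 0.184 in that of 40667 and 12.7 in that of 75027. The part of list length in it was not tested.

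Site by site, no far site among those tested passed for a change of rank in Del(CBS1) or Del(CBS1-5). limma was fitted to normal scores of the rank of fold over the sites that all libraries of 1 antibody detected. Sites without a peak in any 1 of those libraries were left out, so a change through lost detection could not be called. For CTCF it called 0 of 3905 far sites in either allele, with 0% of all 30972 sites called in either, while 273 and 85 far sites had an unadjusted p under 0.05. These were 6.99% and 2.18% of far sites, against 5.43% and 1.61% of all sites tested. For RAD21 it called 0 of 1875 far sites in either, with 0% and 0.0465% of all 12898 sites called and 112 and 202 far sites at an unadjusted p under 0.05. The shares were 5.97% and 10.8%, against 5.08% and 9.62% of all sites tested. limma without trend and robust fitting, centred log2 folds and the replicate block each called 0 far sites as well. The test could miss changes of moderate size. In simulated data, shifts of 1 normal-score unit planted in Del(CBS1) were recovered at 24% of sites for CTCF and 34% for RAD21. At 1.5 units the shares were 86% and 88%, and 13 and 6 sites without a planted shift were called. The noise of each library was drawn independently, and shifts of several sizes were planted together, at 50 sites each. Real libraries can share deviations and gave few or no calls, so these shares can overstate what the real test recovers. Del(CBS1-5), with 2 libraries per antibody, was not simulated. Without the first Del(CBS1-5) library, 27 of 1884 far sites were called for RAD21 in Del(CBS1-5), of 158 called over all sites, where 1 library then stood for the allele and was assumed to vary like the others, and without the first Del(CBS1) library 3 of 3914 were called for CTCF, of 13 over all sites.

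The far sites with the smallest p, named here after their values were seen, did not pass. On chromosome 4 at 124102880, 166 kb from Rragc, which encodes a GTPase that signals amino acids to mTORC1, the WT CTCF folds were 15.3, 10.6 and 14.1 and those of Del(CBS1) 9.25, 5.34 and 5.18. The folds of the groups did not overlap, and limma, on ranks, gave a change of −1.30 normal-score units (SE 0.275) with an adjusted p of 0.568. Folds also differ between whole libraries. Their median over detected far sites was 9.65, 6.84 and 9.20 in the WT and 10, 6.19 and 6.33 in the Del(CBS1) CTCF libraries. On the same chromosome at 4299838, 161 kb from the proenkephalin gene Penk, the WT folds of 17.2, 9.74 and 14.3 stood above 9.30, 5.45 and 5.62. For RAD21 in Del(CBS1-5), the site on chromosome 2 at 133113860, 168 kb from Fermt1, had WT folds of 11.9, 11.5, 12.2 and 12.9 and mutant folds of 9.34 and 4.81 (limma adjusted p = 0.116).

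Detection was lost in both Del(CBS1-5) CTCF libraries at 42 far sites (0.637%, against 0.411% of other sites), and no far site was missing from all 11 mutant libraries. The losses were not confined to that allele. The strongest, on chromosome 10 at 117516382 and 113 kb from Cpm, had uneven WT folds of 2.80, 11.5 and 15.8, was missing from all 3 Del(CBS1) libraries too, was found in 7 of 14 CTCF libraries and never had a RAD21 peak. On chromosome 13 at 85988858, 55.9 kb from the respiratory chain gene Cox7c, the WT CTCF folds were 7.77, 7.38 and 6.35 and the WT RAD21 folds 7.67, 6.93, 9.22 and 6.58. Both CTCF and RAD21 peaks were missing there from Del(CBS1) replicates 2 and 3, both Del(CBS1-5) libraries and Del(CBS2), while CTCF was found in 8 and RAD21 in 10 libraries. On chromosome 12 at 21613594, near Gm46305, the CTCF peak was present in all 3 Del(CBS1) libraries (14.1, 7.10 and 10.7) and both Del(CBS1-3) libraries but in no Del(CBS1-2), Del(CBS1-4), Del(CBS1-5) or Del(CBS2) library. Sites near Lama2 on chromosome 10 and Gm52259 on chromosome 16 were found in 6 and 7 of 14 libraries. The cause of these losses was not tested.

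The gene deserts on both sides of the Hoxd cluster, which hold enhancers of Hoxd genes, contained 21 far sites between Atp5g3 and Gm50595, and none of them lay between Lnpk and Mtx2, where the mutated cluster is. On the Atp5g3 side there were 10 sites, 7 of them in all 14 CTCF libraries, 3 with RAD21 in all 16 libraries and 3 without RAD21 in any. Beyond Mtx2 there were 11, 7 of them in all CTCF libraries, 4 with RAD21 in all and 5 without. The 7 sites with RAD21 in every library had mean WT CTCF percentiles of 54.8 to 98.6, and the 8 without stood at 11.2 to 50.9. These ranges did not overlap, but they leave out 6 sites with RAD21 in some libraries, which did not keep to this order. The site at 75151131 stood at percentile 21.3 with RAD21 in 14 of 16 libraries. Those at 73965819 (76.9) and 74247691 (44.8) had it in 13 and 1. Sites at 74042271 and 74042644 shared a peak in part of the libraries and are not independent.

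**Figure D5:**
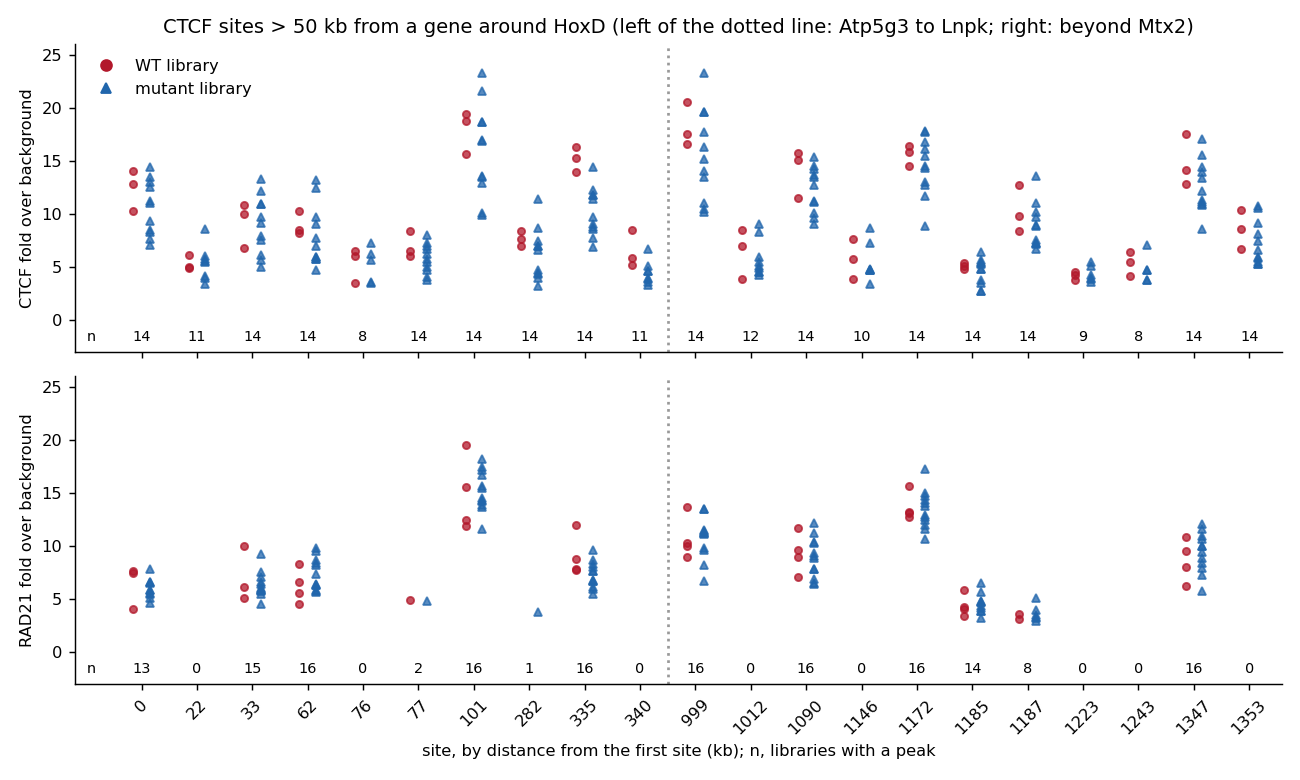
Fold over background of CTCF (top) and RAD21 (bottom) at the 21 far sites around HoxD, in order along chromosome 2, for WT (circles) and mutant (triangles) libraries; n is the number of libraries with a peak, of 14 for CTCF and 16 for RAD21. The WT and mutant ranges of CTCF fold overlap at all 21 sites, and 8 sites have no RAD21 peak.

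The strongest site beyond Mtx2, at 74964574 and 87.8 kb from that gene, had WT CTCF folds of 20.6, 16.6 and 17.5 and mutant folds of 10.2 to 23.3 (median 15.2). Its WT RAD21 folds were 10.3, 8.96, 10.0 and 13.7. On the Atp5g3 side the strongest site, at 74066837, had WT CTCF folds of 18.8, 15.7 and 19.4, and RAD21 folds of 15.5, 12.4, 11.9 and 19.5, within the mutant range of 11.6 to 18.2 except for 1 library. The site at 75138103, 261 kb from Mtx2, had WT CTCF folds of 16.4, 14.5 and 15.9 and WT RAD21 folds of 12.7, 13.3, 13.2 and 15.7, and stood in the promoter window of the long non-coding RNA gene Gm13652. That window is shown because it is the only one of a far site around HoxD. No exact match of the core was found in it, so it has no capitals, and near matches were not searched for.
Gm13652, chr2:75137926-75138225, minus strand: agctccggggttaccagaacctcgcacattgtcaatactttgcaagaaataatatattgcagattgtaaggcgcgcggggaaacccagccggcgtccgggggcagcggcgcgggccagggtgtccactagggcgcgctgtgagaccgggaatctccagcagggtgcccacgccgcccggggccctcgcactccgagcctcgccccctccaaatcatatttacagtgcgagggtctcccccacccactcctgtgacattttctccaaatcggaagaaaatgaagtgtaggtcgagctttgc

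At 74300441, between Atp5g3 and Lnpk, the WT CTCF folds were 16.3, 13.9 and 15.3, the Del(CBS1) folds 14.4, 7.77 and 8.60 and the Del(CBS1-5) folds 12.3 and 11.8. These folds, too, include differences between whole libraries, while limma used ranks within a library. This site had the smallest p around HoxD for CTCF in both alleles, with limma changes of −0.74 (SE 0.248) and −0.88 (SE 0.277) normal-score units for Del(CBS1) and Del(CBS1-5), and it did not pass over all sites (adjusted p = 0.884 and 1.00). Of the 14 sites around HoxD tested for CTCF, 6 were higher and 8 lower in each of the 2 alleles, with changes from −0.79 to 0.46 and from −0.88 to 0.36. In Del(CBS1), 3 of the 14 had an unadjusted limma p under 0.05, against 5.43% of all sites tested. All 3 were lower, at 74247691 (−0.71), 74300441 and 74964574 (−0.79), and none passed after adjustment. In Del(CBS1-5) 1 of the 14 had such a p. Of the 7 tested for RAD21, changes ran from −0.35 to 0.77 for Del(CBS1) and from −0.43 to 0.73 for Del(CBS1-5), with limma adjusted p of at least 0.935 and 0.523. The strongest site of the region without a RAD21 peak, at 75318415, had WT CTCF folds of 8.64, 6.69 and 10.4 and was found in all 14 CTCF libraries.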

How the data were processed

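CTCF was profiled in 14 and RAD21 in 16 ChIPmentation libraries, and the authors deposited 1 peak list for each. Per the submitters' processing notes, MACS2 2.1.1.20160309 was among the tools, together with cutadapt 1.16, Picard 2.19.0, SAMtools 1.9, Bowtie2 2.3.5 and bedtools 2.27.1, and the build was mm10; their options were not given in the sources used here. Every peak of the deposited lists carries a display score, a ratio (fold over local background), a −log10 p, a −log10 q of at least 1.30 and the offset of its summit. No counts came with the lists, so depth was unknown and no counting interval could be computed.

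A site counted as detected where any peak of the library covered its summit, and the peak with the nearest summit gave the value. Sites were measured against RefSeq gene spans of GRCm38.p6, leaving out genes on scaffolds that carry a chromosome's name. Libraries, not sites, were the replicates. Because peaks were called per library, fold entered as a percentile or rank within its library. Far and other sites were compared by exact 2-sided sign-flip permutation over libraries, and genotypes by exact exchange of library labels, with Benjamini-Hochberg adjustment over 10 tests. All libraries read the same sites, so these tests measure agreement between libraries. Single sites were tested with limma 3.58.1 (R 4.3.3) in 1 fit over all genotypes, with a trended and robust variance prior and a threshold of 0.05 on the adjusted p. Where an allele had 1 library, the spread came from the other groups. The scripts were tested on simulated data and ran under Python 3.11.15 with scipy 1.17.1, pandas 2.3.3, matplotlib 3.10.9 and numpy 2.4.6.

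The far sites named were the 5 strongest by CTCF, the 5 farthest, the 5 strongest by RAD21, 5 strong sites without RAD21, 5 lost from both Del(CBS1-5) libraries, those of the HoxD flanks, those next to the 50 kb limit and the 5 intervals with the most sites, of which 1 is not reported here. The members and gene lists were chosen with earlier results of these data known. Alternatives were limits of 20 and 100 kb, all RefSeq genes, sites in at least 2 WT lists, a summit within 100 bp, a stricter −log10 q of 10, −log10 p in place of fold, equal numbers of top peaks, only other sites over 5 kb outside genes, centred log2 fold, limma with neither trend nor robust fitting, a replicate block and leaving out each library.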

Additional observations from a re-analysis of the deposited data

Results flagged for a closer look

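Groups of 4 libraries (the RAD21 WT libraries) were examined for 25 values, and chance alone sets a library apart in about 1 in 20 such groups. At the site on chromosome 17 at 8051388, near Rsph3a, the RAD21 fold of WT replicate 1 was 21.3, while the other 3 WT libraries lay between 30.2 and 31.7. The gap took up 0.861 of the range of the group, above the 95% critical value for 4 libraries. The site was counted under 2 naming rules, as one of the strongest by CTCF and as the strongest by RAD21. WT replicate 1 also had the shortest WT RAD21 list, with 22449 peaks, and the part of this in the lower value was not tested.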

How the results depend on the processing

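CTCF detection in mutants kept its direction and its call under all 24 alternatives, at sizes from −4.82 with equal numbers of top peaks to −1.08 without the 5 shortest lists. CTCF strength over all libraries ran from 5.35 to 6.34 points when 1 library was left out, was −8.64 by −log10 p and 2.76 against sites over 5 kb outside genes; in WT it ran from −0.913 to 1.23, and was −0.631 beyond 100 kb, −8.05 by −log10 p and −3.13 against sites over 5 kb outside genes. RAD21 occupancy was 1.46 beyond 20 kb, −1.36 beyond 100 kb, 1.51 with all RefSeq genes, −0.0670 with sites in at least 2 WT lists, 3.63 with −log10 q of at least 10, −5.09 against sites over 5 kb outside genes, −0.118 without the 5 shortest lists, −0.267 for sites that share no peak, and −0.946 to 0.753 with 1 library left out. Within strength classes it was −0.137 beyond 20 kb, −0.156 with all RefSeq genes, 0.0584 with −log10 q of at least 10, 0.726 with equal numbers of top peaks, 6.14 with classes of −log10 p, and −2.14 to 0.112 with 1 library left out. RAD21 strength was −2.14 against sites over 5 kb outside genes and 5.35 to 5.87 with 1 library left out.

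The Del(CBS1) difference in RAD21 occupancy was 1.82 without the 5 shortest lists and −8.16 to 1.82 with 1 library left out; that of all mutants was 1.80 and −5.06 to 0.279. The difference of CTCF strength between mutants and WT ran from −3.45 to 1.43 with 1 library left out. limma called 2 far sites (13 over all sites) for RAD21 in Del(CBS1-5) by rank of −log10 p, 1 (4 over all) without the 5 shortest lists and 0 to 27 with 1 library left out. It called 0 to 3 for CTCF in Del(CBS1) with 1 library left out and 1 (4 over all) for CTCF in Del(CBS1-5) without the 5 shortest lists. The cause of these changes was not tested. Leaving out the shortest lists or the only library of an allele, sites that share no peak and classes of −log10 p were chosen after seeing the data.

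Replicate numbers were not shown to pair libraries: deviations of same-numbered WT and Del(CBS1) libraries correlated at 0.266, 0.131 and 0.0256 for CTCF and 0.275, 0.0892 and 0.0634 for RAD21, and not every library correlated best with its own number. With the replicate block the RAD21 differences were −3.60 for Del(CBS1), −0.0500 for all mutants and −0.727 for far minus other sites, the CTCF strength difference was −2.74, and limma called 0 far sites in all 4 comparisons, so no call changed.

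The limit set the number of far sites, with 10577 beyond 20 kb, 4104 beyond 100 kb, 1758 with all RefSeq genes and 4223 with −log10 q of at least 10. Without counts, depth limits what a missing peak can show.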
